A study of Mus musculus with 8 samples.

Results

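The imprinted genes of mouse chromosome 2 described here are H13, Mcts2, Nnat, Blcap and Gnas. They were selected by name, with earlier results of these libraries known, and are 5 of the 55422 features that were counted. All 5 passed the filter on low counts at whole-library level, as did 21075 features in all. Because the difference between genotypes may have played a part in the selection, the adjusted p-values below come from fits over all genes and describe these libraries only.

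Chimaeric mouse embryos were made from ES cells of 1 line, of mixed C57BL/6J-129Sv background, that lack Tet1, Tet2 and Tet3 (Tet-TKO). The ES cells carry an H2B-tdTomato reporter under the ubiquitous CAG promoter, were kept in 2i medium with LIF, and were selected with puromycin. These cells were injected into C57BL/6J host blastocysts and transferred to CD1 recipients, and the embryos were pooled at E7.5 or E8.5, dissociated and sorted into tdTomato+ cells (Tet-TKO) and tdTomato- cells (WT host). Droplet libraries (10x Genomics 3′ v3) were made from 4 Tet-TKO and 2 WT host samples at E8.5. At E7.5 each genotype had 1 library. The WT host cells are thus cells of chimaeric embryos too, though the sources used here do not say which of the E8.5 WT host libraries matches which Tet-TKO library. Genotype, strain background, sorting gate, ES cell origin, ES cell culture and puromycin selection change together and cannot be told apart. No source says that libraries of a group came from separate pools, so p-values measure the spread between libraries, which may be technical. In some fits of a class against the other cells that spread was pooled over all genes.

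Libraries held between 65601218 and 136982886 UMIs, and between 1012 and 9552 cells were kept in each. tdTomato lay between 71.4 and 144 CPM (UMIs scaled to a library total of 1000000) in the 5 Tet-TKO libraries and between 0.443 and 0.959 CPM in the 3 WT host libraries. At E8.5 Tet1 was still counted at 9.99 to 20.8 CPM in Tet-TKO libraries and at 20.5 and 22.5 CPM in the WT host, Tet2 at 5.59 to 10.5 CPM against 4.64 and 4.68 CPM, and Tet3 at 22.5 to 37.5 CPM against 23.1 and 23.3 CPM. Tet2 was thus higher, not lower, in every E8.5 Tet-TKO library, and Tet3 overlapped. At E7.5 the Tet-TKO library was lower for all 3 genes, with Tet1 at 13.4 against 27.6 CPM, Tet2 at 2.49 against 2.97 CPM and Tet3 at 9.55 against 14.1 CPM. Whether the counted transcript ends lie within the deleted parts was not checked, so these levels do not test the labels. Pairs of libraries shared between 0 and 28 cell barcodes, which was at most 0.434% of the smaller library in any pair. Tet-TKO libraries 1 and 2 resembled each other, as did libraries 3 and 4, with a chi-square per degree of freedom of 14.2 and 17.0 within the pairs and of 162 to 178 between them. The WT host libraries of E8.5 were less alike, with 128 between libraries 1 and 2. The median UMI count per cell was 18763 and 12176 in Tet-TKO libraries 1 and 2 and 40387 and 68704 in libraries 3 and 4. Visceral endoderm-like, parietal endoderm-like and ExE ectoderm-like cells were nearly all WT host, and the erythroid-like class held 1446 and 2398 cells of the WT host libraries and 349 Tet-TKO cells in all at E8.5, so whole-library values are also given without these 4 classes.

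Imprinted genes are transcribed mainly from the allele of 1 parent, and the choice is set by DNA methylation laid down in the germ line at a control region, which is then kept through the wave of demethylation after fertilisation. TET enzymes oxidise 5-methylcytosine, the first step of active demethylation. H13 encodes signal peptide peptidase, a membrane protease of the endoplasmic reticulum. Mcts2 is a retrocopy of the X-linked gene Mcts1, a partner of DENR in translation re-initiation, and lies in an intron of H13. It is expressed from the paternal allele, where its promoter is unmethylated, and full-length H13 transcripts come mainly from the maternal allele, while shorter ones end upstream of Mcts2. Nnat encodes neuronatin, a small membrane proteolipid of the developing nervous system, is expressed from the paternal allele and lies in an intron of Blcap, a conserved small membrane protein gene that reads the other way. Gnas encodes the stimulatory G protein alpha subunit, in a complex locus with several promoters and antisense transcripts.

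In the GRCm38 annotation, H13 (ENSMUSG00000019188) spans chr2:152669461-152708670 on the plus strand. Mcts2 (ENSMUSG00000042814) has a single exon at chr2:152687035-152687946 on the same strand, 17574 bases from the start of H13, and overlaps 0 exons of H13. Of the 6 annotated H13 transcripts, 2 end before Mcts2 and 3 start before it and run past it. Nnat (ENSMUSG00000067786) lies at chr2:157560078-157562522 on the plus strand with 10 transcripts, inside Blcap (ENSMUSG00000067787), which has 6 transcripts on the minus strand at chr2:157556362-157571274, and the exons of these genes do not overlap either. Gnas (ENSMUSG00000027523) spans chr2:174284320-174346744 on the plus strand with 24 transcripts. Counts are per gene, so neither the H13 transcripts that end before and beyond Mcts2, nor the Gnas promoters, nor the parental alleles can be told apart. Mcts2 and Mcts1 share 0 of the 863 stretches of 50 bases in Mcts2, so reads of that length without errors cannot match both.

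**Figure D1:**
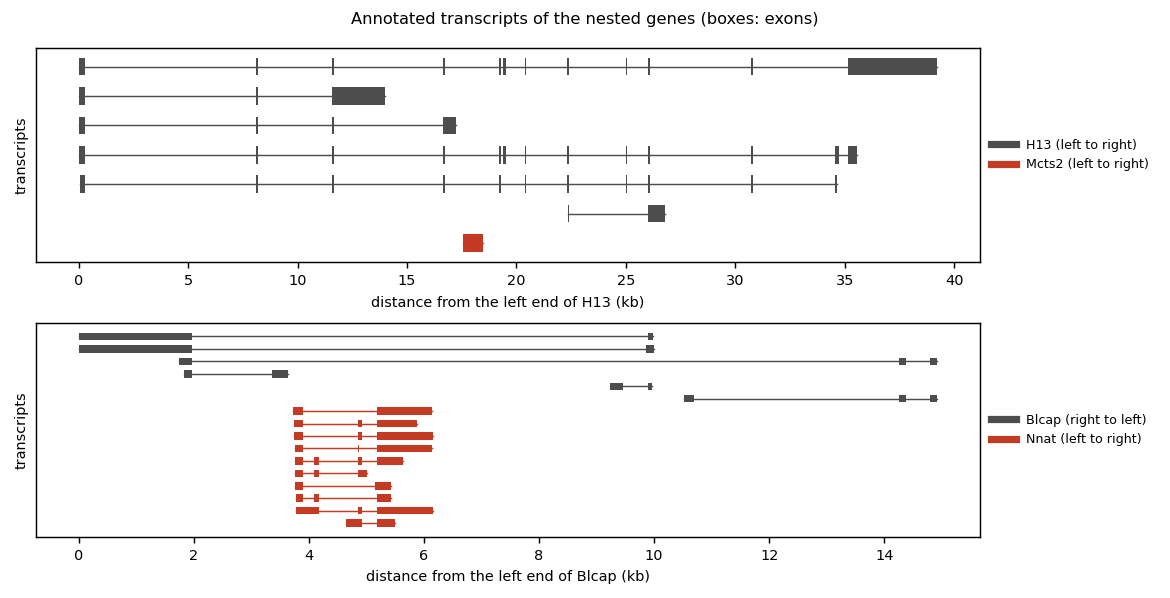
Annotated transcripts of H13 with Mcts2 (top) and of Blcap with Nnat (bottom), against the distance from the left end of the outer gene in kb. Boxes are exons and lines are introns. Mcts2 and all 10 Nnat transcripts sit between exons of the gene around them, and 2 of the 6 H13 transcripts end to the left of Mcts2.

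Bases just upstream of an annotated start are shown for the nested genes and for their host genes. The reason is that methylation of CG dinucleotides at a control region sets imprinted expression, and the Mcts2 promoter is unmethylated on the expressed allele. The stretches of the host genes are shown for comparison and are not given as control regions. The Blcap stretch lies inside the span of that gene given above, since other Blcap transcripts start farther upstream. The sequences are RefSeq promoters of GRCm38.p6, read 5′ to 3′ on the strand of the gene, with CG dinucleotides in capitals. Those of H13 (chr2:152669211-152669460, plus strand), Mcts2 (chr2:152686898-152687034, plus strand), Nnat (chr2:157559828-157560077, plus strand) and Blcap (chr2:157566362-157566611, minus strand) hold 18, 12, 12 and 12 CG dinucleotides.
H13: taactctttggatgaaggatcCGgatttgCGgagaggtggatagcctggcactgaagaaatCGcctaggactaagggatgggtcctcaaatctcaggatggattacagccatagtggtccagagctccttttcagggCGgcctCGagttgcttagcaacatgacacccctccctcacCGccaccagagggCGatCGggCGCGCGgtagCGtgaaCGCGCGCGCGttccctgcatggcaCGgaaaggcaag
Mcts2: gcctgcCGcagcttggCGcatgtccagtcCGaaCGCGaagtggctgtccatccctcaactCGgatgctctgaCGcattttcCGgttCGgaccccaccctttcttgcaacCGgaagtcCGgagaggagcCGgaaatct
Nnat: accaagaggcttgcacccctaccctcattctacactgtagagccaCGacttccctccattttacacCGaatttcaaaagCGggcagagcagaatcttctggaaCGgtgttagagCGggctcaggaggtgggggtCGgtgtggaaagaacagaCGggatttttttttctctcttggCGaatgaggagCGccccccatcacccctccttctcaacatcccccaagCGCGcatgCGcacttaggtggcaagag
Blcap: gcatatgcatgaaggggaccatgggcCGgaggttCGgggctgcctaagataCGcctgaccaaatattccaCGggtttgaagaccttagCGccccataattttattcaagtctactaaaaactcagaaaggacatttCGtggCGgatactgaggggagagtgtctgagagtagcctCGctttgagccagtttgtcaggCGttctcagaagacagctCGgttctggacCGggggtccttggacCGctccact
In windows of 300 bases that run on into the first bases of the transcript, there were 21 CG dinucleotides for H13, 25 for Mcts2, 17 for Nnat and 17 for Blcap. The median over the 32851 promoter windows of the genome was 7. Of these windows, 75.2% held fewer than H13, 81.6% fewer than Mcts2, and 68.6% fewer than Nnat or Blcap. The 4 Gnas windows held between 16 and 40. The letters TGCCGC, which the imprint maintenance factor ZFP57 binds when methylated, were searched on both strands. There was 1 match in the Mcts2 window and 1 in the Nnat window and 0 in those of H13, Blcap and Gnas, and 11.6% of all windows held at least 1. DNA methylation was not measured in these libraries.

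H13 was lower in the Tet-TKO cells at E8.5. It was counted at 22.02, 23.2, 24.3 and 21.6 CPM in Tet-TKO libraries 1 to 4 and at 59.0 and 51.6 CPM in WT host libraries 1 and 2. Every Tet-TKO library was below both WT host libraries, and the means were 22.8 ± 1.23 CPM (SD, n = 4) and 55.3 ± 5.25 CPM (SD, n = 2). The log2 fold change was -1.36 (SE 0.11), or 2.57-fold lower, and H13 passed both thresholds, which were 0.01 for the adjusted p and 1 for the size of the log2 fold change (adjusted p = 0.00149, edgeR quasi-likelihood test with Benjamini-Hochberg adjustment over all genes tested). At whole-library level 2.06% of the genes tested were called lower and 0.588% higher, and all Tet-TKO libraries lay below both WT host libraries in 17.9% and above them in 23.1%. In a sum over a whole library, fewer cells of a type and less RNA per cell cannot be told apart. Without the erythroid-like and extraembryonic-like cells the log2 fold change of H13 was -1.41 (adjusted p = 0.00201 in the same edgeR test), and without WT host library 1 it was -1.29 and missed the threshold (adjusted p = 0.0189).

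Mcts2, inside H13, stood the other way. Its levels were 90.6, 88.3, 81.2 and 75.03 CPM in Tet-TKO libraries 1 to 4, above the 52.3 and 48.1 CPM of WT host libraries 1 and 2. All 4 Tet-TKO libraries were above both WT host libraries. The means of 83.8 ± 7.06 CPM (SD, n = 4) and 50.2 ± 2.94 CPM (SD, n = 2) gave a log2 fold change of 0.67 (SE 0.15), which did not pass the thresholds (adjusted p = 0.0407, edgeR with Benjamini-Hochberg adjustment). Without the erythroid-like and extraembryonic-like cells it was 0.84 (adjusted p = 0.0272 in the same edgeR test). Its source gene Mcts1 (chrX:38600578-38613426, plus strand) was at 103 and 105 CPM in Tet-TKO libraries 1 and 2, at 62.4 and 58.0 CPM in libraries 3 and 4, and at 84.4 and 76.7 CPM in the WT host libraries. The libraries of the WT host thus lay between the 2 pairs of Tet-TKO libraries for Mcts1 and below all of them for Mcts2.

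The UMIs of H13 per UMI of Mcts2 set both genes against each other within a library. There were 0.243, 0.263, 0.300 and 0.288 H13 UMIs per Mcts2 UMI in Tet-TKO libraries 1 to 4. Both WT host libraries had more, 1.13 and 1.07. The groups did not overlap, with means of 0.273 ± 0.025 (SD, n = 4) and 1.10 ± 0.040 (SD, n = 2). An exact two-sided permutation test gave p = 0.133, the smallest that 4 against 2 libraries allow. With H13 lower and Mcts2 higher in every Tet-TKO library, this outcome was fixed, so the test adds nothing to the levels above. At E7.5 the ratio was 0.157 in the Tet-TKO library and 1.01 in the WT host library.

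Nnat was counted at 228, 275, 293 and 270 CPM in Tet-TKO libraries 1 to 4 and at 116 and 147 CPM in the WT host libraries. All Tet-TKO libraries were above both WT host libraries, with means of 267 ± 27.8 CPM (SD, n = 4) and 132 ± 22.2 CPM (SD, n = 2). The log2 fold change of 0.93 (SE 0.14) stood just short of both thresholds (adjusted p = 0.0108, edgeR with Benjamini-Hochberg adjustment). Without the erythroid-like and extraembryonic-like cells, in which Nnat was low, it was 0.54 (adjusted p = 0.0783 in the same edgeR test), and with 21 classes weighted equally it was 0.68.

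Blcap, around Nnat, was at 11.7, 11.8, 11.5 and 12.0001 CPM in Tet-TKO libraries 1 to 4 and at 14.2 and 16.02 CPM in the WT host libraries. The 4 Tet-TKO libraries (mean 11.8 ± 0.202 CPM, SD, n = 4) all lay below both WT host libraries (15.1 ± 1.26 CPM, SD, n = 2). The log2 fold change was -0.44 (SE 0.12), which did not pass the thresholds (adjusted p = 0.0633, edgeR with Benjamini-Hochberg adjustment), and it was -0.50 without the erythroid-like and extraembryonic-like cells. There were 19.4, 23.3, 25.5 and 22.5 Nnat UMIs per Blcap UMI in the Tet-TKO libraries and 8.15 and 9.20 in the WT host libraries. These groups also stood apart, and the exact two-sided permutation p was again the smallest possible, 0.133. With Nnat higher and Blcap lower in every Tet-TKO library, this outcome was fixed too.

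Gnas was counted at 915, 905, 971 and 956 CPM in Tet-TKO libraries 1 to 4 and at 789 and 792 CPM in the WT host libraries. The 4 Tet-TKO libraries were above the 2 WT host libraries, and the log2 fold change of 0.16 (SE 0.09) did not pass the thresholds (adjusted p = 0.308, edgeR with Benjamini-Hochberg adjustment). It was 0.06 without the erythroid-like and extraembryonic-like cells and -0.02 with classes weighted equally, and the erythroid-like, visceral endoderm-like and ExE ectoderm-like classes, nearly all WT host, had the lowest Gnas levels. The antisense transcript Gnasas1 (also Nespas) was at 15.98 and 16.9 CPM in Tet-TKO libraries 1 and 2, at 30.9 and 30.5 CPM in libraries 3 and 4, and at 10.2 and 9.92 CPM in the WT host libraries. Its log2 fold change of 1.12 (SE 0.27) did not pass either (adjusted p = 0.0441, edgeR with Benjamini-Hochberg adjustment), and it was 0.98 (adjusted p = 0.105) without the erythroid-like and extraembryonic-like cells. Another annotated gene on the minus strand, Gm20721, shares sequence with Gnas over 12 of its 13 exons, and was at 1.65 and 1.53 CPM in Tet-TKO libraries 1 and 2, at 5.89 and 6.41 CPM in libraries 3 and 4, and at 1.30 and 1.18 CPM in the WT host.

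**Figure D2:**
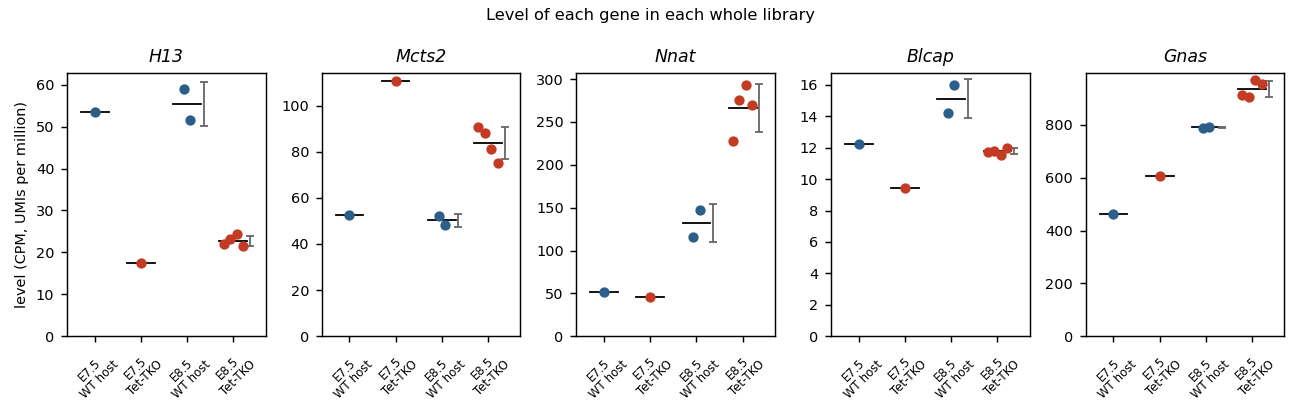
Level of each gene (CPM) in every whole library, with WT host in blue and Tet-TKO in red. Points are libraries, black lines are means and grey bars are 1 SD, shown at E8.5 only, since E7.5 has 1 library of each genotype. H13 and Blcap lie lower, and Mcts2, Nnat and Gnas higher, in all 4 E8.5 Tet-TKO libraries than in both WT host libraries.

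E7.5 had a single library per genotype, so no test was made and the intervals cover counting error only. H13 was at 17.4 CPM in Tet-TKO and 53.4 CPM in WT host cells, a log2 ratio of -1.62 (95% interval -1.69 to -1.54). Mcts2 was at 111 and 52.7 CPM, a log2 ratio of 1.07 (95% interval 1.03 to 1.12). Both genes thus stood on the same side as at E8.5. Nnat was at 45.4 CPM in Tet-TKO and 51.7 CPM in WT host cells (log2 ratio -0.19, 95% interval -0.25 to -0.13), on the opposite side from E8.5. Blcap was at 9.41 and 12.3 CPM (log2 ratio -0.38, 95% interval -0.50 to -0.26) and Gnas at 608 and 463 CPM (log2 ratio 0.39, 95% interval 0.38 to 0.41). Without erythroid-like and extraembryonic-like cells the log2 ratios were -1.53 for H13, 0.98 for Mcts2, -0.94 for Nnat, -0.62 for Blcap and -0.07 for Gnas, so that the ratio of Gnas changed sign and that of Nnat moved further below 0.

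Between the stages, the mean Nnat level was 5.88-fold higher at E8.5 than at E7.5 in Tet-TKO and 2.55-fold higher in WT host libraries. Gnas was 1.54-fold and 1.71-fold higher, and Blcap 1.25-fold and 1.23-fold higher. H13 was 1.31-fold higher in the Tet-TKO libraries and 1.04-fold higher in the WT host libraries, where the E7.5 value lay between both E8.5 values. Without erythroid-like and extraembryonic-like cells H13 was at 49.9 CPM in the E7.5 WT host library and at 62.9 and 61.5 CPM in those of E8.5, both of them higher. Mcts2 stood at 0.756 and 0.952 times its E7.5 level. Gnas without erythroid-like and extraembryonic-like cells was at 608 CPM at E7.5 and at a mean of 945 CPM at E8.5 in Tet-TKO libraries. In WT host libraries it was then at 637 and 922 CPM, so that the larger rise was in Tet-TKO. WT host Mcts2 was at 56.4 and 47.7 CPM without these cells. The changes between stages were not tested, since 1 library stands for each genotype at E7.5, and the cell classes of the stages differ.

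Cells were clustered without the 5 genes, and clusters were named after markers as X-like or left with a number. At E8.5 there were 28 classes, 23 of them named, and 24 had at least 10 cells in at least 2 libraries of each genotype and were tested. Level orders below use the 26 classes with both WT host libraries, and the class values are means over these 2 libraries.

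In WT host cells H13 was highest in visceral endoderm-like cells at 111 CPM (107 and 115), a secretory epithelium of the yolk sac, then in mesenchyme-like cells at 98.3 CPM (86.4 and 110) and allantois-like cells at 81.3 CPM (78.7 and 83.9). It was lowest in blood progenitor-like cells at 43.7 CPM, spinal cord-like cells at 42.9 CPM and erythroid-like cells at 26.2 CPM (26.7 and 25.6). The highest class was 4.24-fold above the lowest, and the ranges of the libraries overlapped in 22 of the 25 pairs of neighbouring classes. The genes whose WT host levels were most like those of H13 over these classes, of 11045 compared on log2(CPM + 1), were Slc35f5 (Pearson r = 0.917), the endoplasmic reticulum chaperone gene Calr (0.901) and the oligosaccharyltransferase gene Rpn1 (0.894).

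H13 was lower in Tet-TKO cells in all 23 classes in which it was tested, and in each of them every Tet-TKO library was below every WT host library. In classes formed anew without correction between libraries it was lower in 12 of 14 and called in 7. The log2 fold changes ran from -1.78 to -1.06 with a median of -1.38. H13 was called lower in 17 classes, in 1 class with either WT host library left out and in 11 without Tet-TKO library 3 (adjusted p below 0.01, edgeR with Benjamini-Hochberg adjustment within each class). With a WT host library left out, the other stands alone and is taken to vary as the Tet-TKO libraries do, with fewer residual degrees of freedom. The log2 fold changes of H13 were then -1.91 to -0.95 without library 1 and -1.84 to -1.03 without library 2. Over all pairs of a gene and a class, 0.342% were called lower and 0.22% higher, 1.09% were called by DESeq2, 11.5% had an unadjusted p below 0.05 in edgeR, and all Tet-TKO libraries lay below all WT host libraries in 13.7% and above them in 10.3%. Of the 8148 genes tested in at least 20 classes, 3.01% were lower and 4.66% higher in every class tested, and 0.135%, or 11 genes, were called lower in at least 17 classes. Besides H13, these were the haemoglobin genes Hba-a1, Hba-a2, Hba-x, Hbb-bh1 and Hbb-y, and 2810403D21Rik, Gm42047, Hist1h4i, Rps3a1 and Xist. Whether the ES cell line and the pooled hosts differ in sex was not tested. The summed level of the 5 haemoglobin genes in cells outside the erythroid-like and blood progenitor-like classes was 7.96 to 44.2 CPM in Tet-TKO libraries and 791 and 1761 CPM in the WT host. Free RNA in droplets was not removed, and its part in the class levels, above all in the low ones, was not tested.

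Among the called classes, the log2 fold change of H13 was largest in size in the epiblast-like class, which entered with Tet-TKO libraries 1 and 2 only. H13 was at 13.1 and 12.7 CPM there and at 43.0 and 51.7 CPM in the WT host libraries, a log2 fold change of -1.78 (SE 0.27). In mesenchyme-like cells, the tested class with the most H13 in the WT host, levels were 31.2, 29.5, 36.7 and 31.3 CPM in Tet-TKO and 86.4 and 110 CPM in WT host libraries, a log2 fold change of -1.66 (SE 0.13). The Tet-TKO libraries of this highest class were thus near the WT host level of erythroid-like cells. Midbrain and hindbrain-like (-1.59), pharyngeal mesoderm-like (-1.59), allantois-like (-1.56) and gut endoderm-like cells (-1.54) followed. The change was smallest in erythroid-like cells, at 11.8, 11.6, 16.02 and 21.96 CPM against 26.7 and 25.6 CPM (log2 fold change -1.06, SE 0.21), where it was not called (adjusted p = 0.0203, edgeR with Benjamini-Hochberg adjustment). tdTomato was at 33.2 CPM in the Tet-TKO cells of this class and at 110 CPM over all E8.5 Tet-TKO cells. With only the cells that match their tdTomato fraction, which left 3 Tet-TKO libraries in this class, the log2 fold change was -1.28 (SE 0.21) and was called (adjusted p = 0.0071, edgeR).

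The size of the H13 difference was also set against that in all other cells of the same libraries, with the library as a block. The difference of log2 fold changes lay between -0.44 and 0.30 over the 24 classes and was called in 0 of them in edgeR, with 0 at an unadjusted p below 0.05. Over all genes and classes, 1% of such differences were called, 2.04% had an adjusted p below 0.01 and 14% an unadjusted p below 0.05 in edgeR. With erythroid-like and extraembryonic-like cells left out of the other cells, 0.313% were called and 0.51% had an adjusted p below 0.01. An absence of calls does not show equal changes.

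Mcts2 varied less across classes. In WT host cells it was highest in blood progenitor-like cells at 77.4 CPM (82.7 and 72.0), cluster 31 at 65.9 CPM and ExE mesoderm-like cells at 60.3 CPM. It was lowest in ExE ectoderm-like cells at 36.5 CPM, notochord-like cells at 35.2 CPM and gut endoderm-like cells at 33.4 CPM (33.5 and 33.2). The span was 2.32-fold, and 23 of 25 neighbouring pairs overlapped. Over the WT host classes Mcts2 and H13 went in opposite directions (r = -0.57, n = 26 classes that share 2 libraries), and so they did over the Tet-TKO classes (r = -0.66, n = 21). The genes most like Mcts2 were the mitochondrial import gene Timm9 (r = 0.745), the methionine salvage gene Mri1 (0.744) and the translation factor gene Eif5a (0.741).

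Mcts2 was higher in Tet-TKO cells in 23 of 24 classes, with a median log2 fold change of 0.81, and in 22 classes all Tet-TKO libraries were above both WT host libraries. Without WT host library 1 or 2, which leaves a lone WT host library, the highest log2 fold change over the classes was 1.17 and 1.20. With both WT host libraries Mcts2 was called in the gut endoderm-like class only. In that class it was at 73.7, 75.6, 73.2 and 65.7 CPM in Tet-TKO and 33.5 and 33.2 CPM in WT host libraries (log2 fold change 1.17, SE 0.14, adjusted p = 0.0029, edgeR with Benjamini-Hochberg adjustment). In blood progenitor-like cells, the highest class, the levels were 141, 143, 144 and 118 CPM against 82.7 and 72.0 CPM (log2 fold change 0.85, SE 0.16, adjusted p = 0.0168 in the same edgeR test). The exception was cluster 31, a class led by CT010467.1, Mir6236 and Gm42418, with 65.6, 59.1, 45.9 and 44.1 CPM against 69.7 and 62.1 CPM (log2 fold change -0.23, SE 0.30). The sums of cluster 31 held few UMIs, and 3076 genes passed the filter on low counts there, the fewest of the tested classes. The difference in gut endoderm-like cells was larger than that in the other cells by 0.53 in log2 (adjusted p = 0.0024, edgeR interaction test), short of the threshold of 1, so that 0 classes were called, with 4 at an unadjusted p below 0.05. With erythroid-like and extraembryonic-like cells left out of the other cells, no difference reached an adjusted p of 0.01.

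**Figure D3:**
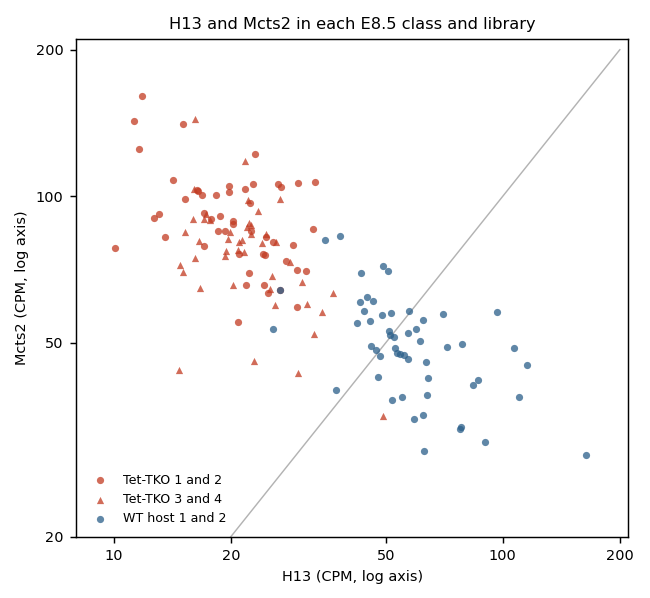
Mcts2 against H13 (CPM, both axes logarithmic) in each E8.5 class and library with at least 10 cells, with Tet-TKO in red and WT host in blue. The grey line marks equal counts. All Tet-TKO points but 1 class of library 4 lie above the line, and WT host points fall on both sides of it.

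Within each of the 24 tested classes, every Tet-TKO library had fewer H13 UMIs per Mcts2 UMI than any WT host library. Where both genes stood apart in a class, this follows from their levels. No share over other pairs of genes is given. The ratio ran from 0.0735 to 1.39 with a median of 0.255 over 92 Tet-TKO sums, and from 0.416 to 2.88 with a median of 1.11 over 48 WT host sums. The highest Tet-TKO ratio came from cluster 15, a class led by Gm42418, Mir6236 and Rpgrip1, where the Tet-TKO libraries ranged from 0.299 to 1.39. In gut endoderm-like cells the ratio was 0.308 to 0.387 in Tet-TKO and 2.33 and 2.34 in WT host libraries. In erythroid-like cells it was 0.0735 to 0.254 and 0.416 to 0.479. The ratio therefore differed between classes as well as between genotypes.

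At E7.5, H13 was lower in the Tet-TKO library in 23 of the 24 classes with at least 10 cells of each genotype, and the counting interval of the log2 ratio lay below 0 in 17. Mcts2 was higher in 23 of 24, with the interval above 0 in 19. All classes of a genotype come from 1 library, so a shift of that library recurs in each. No share over all genes is given for these counts or for the other E7.5 class counts below. The exception for H13 was cluster 13 of that stage, with 27 Tet-TKO UMIs and 1 WT host UMI, and the exception for Mcts2 was the blood progenitor-like class, with 1 Tet-TKO and 10 WT host UMIs. The visceral endoderm-like class, nearly absent from the E8.5 Tet-TKO libraries, could be compared at E7.5, where H13 was at 75.6 CPM from 22 UMIs in Tet-TKO and 109 CPM in WT host cells (log2 ratio -0.53, 95% interval -1.21 to 0.07). The interval of this class included 0, and tdTomato was at 41.2 CPM in its Tet-TKO cells and at 71.5 CPM over all E7.5 Tet-TKO cells.

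Nnat varied most across classes. In WT host cells of E8.5 it was highest in mesenchyme-like cells at 527 CPM (447 and 607), pharyngeal mesoderm-like cells at 524 CPM (531 and 516) and somite and paraxial mesoderm-like cells at 379 CPM (366 and 392). It was lowest in visceral endoderm-like cells at 16.2 CPM, ExE ectoderm-like cells at 13.7 CPM and blood progenitor-like cells at 7.07 CPM (5.33 and 8.82). The highest class was 74.5-fold above the lowest, whose level rests on 17 UMIs in WT host library 1, and 20 of 25 neighbouring pairs overlapped. Midbrain and hindbrain-like cells, of the tissue for which the gene is best known, were at 299 CPM. The genes most like Nnat were Fxyd6 (r = 0.930), the microfibril gene Mfap2 (0.911) and the Wnt receptor gene Fzd2 (0.910).

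Nnat differed between genotypes by unequal amounts across classes. It was called higher in notochord-like, gut endoderm-like and pharyngeal mesoderm-like cells. In notochord-like cells it was at 1154, 806, 949 and 1387 CPM in Tet-TKO libraries 1 to 4 and at 329 and 372 CPM in the WT host libraries (log2 fold change 1.66, SE 0.23, adjusted p = 0.0061, edgeR with Benjamini-Hochberg adjustment). The lowest Tet-TKO library was above the highest WT host library. In gut endoderm-like cells levels were 395, 340, 564 and 509 CPM against 148 and 181 CPM (log2 fold change 1.50, SE 0.19, adjusted p = 0.0034 in the same edgeR test). In pharyngeal mesoderm-like cells they were 1136, 1155, 1227 and 872 CPM against 531 and 516 CPM (log2 fold change 1.09, SE 0.16, adjusted p = 0.0079 in the same edgeR test). In all 3 classes the libraries of the genotypes stood apart, but 0 classes were called with WT host library 1 or 2 left out, where the highest log2 fold change over the classes was 1.58 and 1.77.

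Midbrain and hindbrain-like cells had an adjusted p of 0.0088 in edgeR but a log2 fold change of 0.94, with 533, 593, 615 and 527 CPM in Tet-TKO and 274 and 324 CPM in WT host libraries. In mesenchyme-like cells, the highest WT host class, Nnat was at 415, 694, 552 and 521 CPM in Tet-TKO and 447 and 607 CPM in WT host libraries, a log2 fold change of 0.01 (SE 0.21). The groups overlapped there. They overlapped as well in somite and paraxial mesoderm-like cells, at 512, 629, 486 and 383 CPM against 366 and 392 CPM (log2 fold change 0.42, SE 0.20), and in blood progenitor-like cells, at 10.9, 13.9, 5.19 and 3.72 CPM against 5.33 and 8.82 CPM. Over all 24 classes Nnat was higher in 21. The log2 fold change lay between -0.13 and 1.66 (median 0.43), and all Tet-TKO libraries were above both WT host libraries in 10.

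The differences between classes were tested directly, as the log2 fold change in a class minus that in all other cells of the same libraries. For Nnat this was called in 3 of 24 classes, in allantois-like cells at -1.18 (adjusted p = 4.55e-05), cluster 31 at -1.14 (adjusted p = 3.02e-06) and endothelium-like cells at -1.02 (adjusted p = 9.94e-08), all in the edgeR interaction test with Benjamini-Hochberg adjustment. It reached an adjusted p of 0.01 in 13 classes, of which 12 lay below 0 and 1, the notochord-like class, above it. The other cells of the WT host libraries include many erythroid-like and extraembryonic-like cells, which are low in Nnat. With these left out, 1 class was called, the notochord-like class at 1.09 (adjusted p = 1.0e-12, edgeR), while gut endoderm-like cells stood at 0.94 (adjusted p = 0.000247) and allantois-like cells at -0.73 (adjusted p = 0.0044). An adjusted p of 0.01 was then reached in 5 classes in place of 13, with 3 above 0 and 2 below it, so that the balance of directions turned. The remaining 2 were midbrain and hindbrain-like cells at 0.44 (adjusted p = 0.00267) and caudal epiblast and NMP-like cells at -0.51 (adjusted p = 0.00299, edgeR). For notochord-like, endothelium-like and cluster 31 cells the variance in these fits was pooled over all genes. Their p-values thus do not measure the spread of Nnat itself between libraries, and cannot be ranked against those of the other classes.

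**Figure D4:**
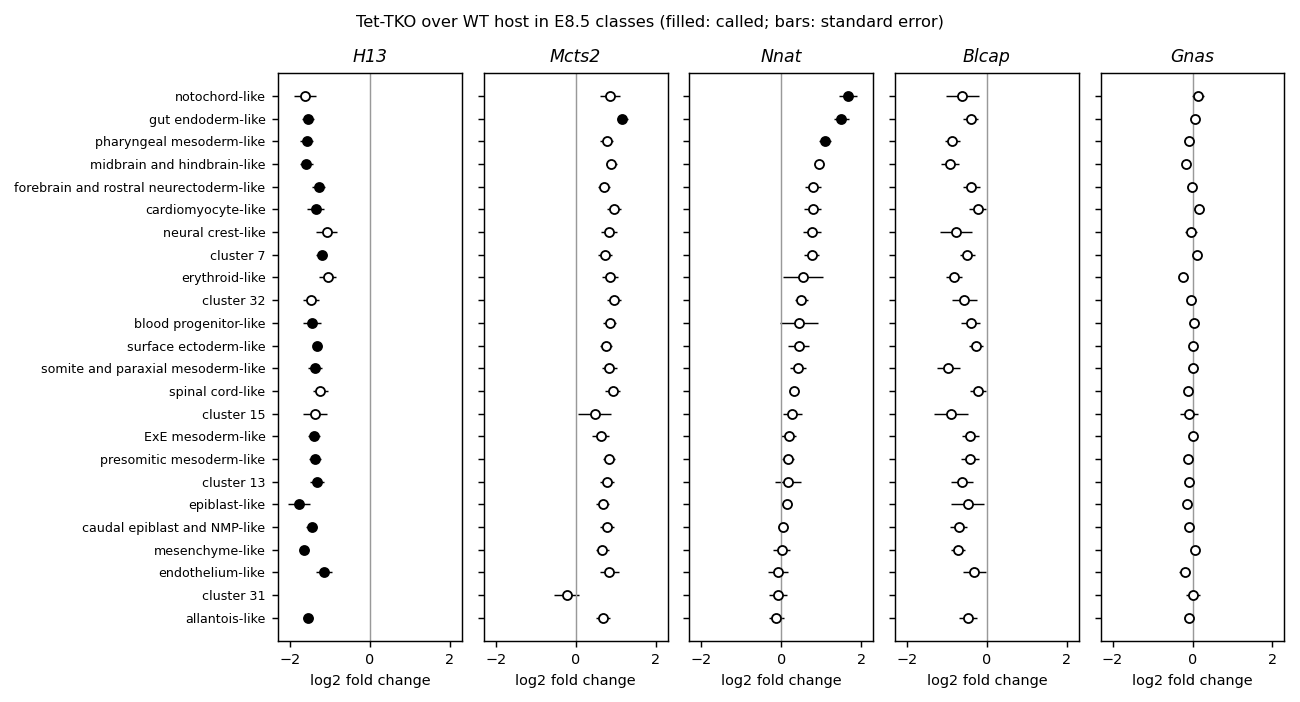
Log2 fold change of each gene (Tet-TKO over WT host) in the tested E8.5 classes, ordered by the value for Nnat. Points are edgeR estimates, filled where the gene was called, and bars are standard errors. H13 lies between -1.78 and -1.06 and Mcts2 near its median of 0.81 in nearly all classes, Nnat runs from -0.13 to 1.66, Blcap lies below 0 and Gnas near 0 throughout.

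At E7.5 Nnat in notochord-like cells, the class with the highest level in both genotypes, was at 297 CPM in Tet-TKO and 312 CPM in WT host cells, and in gut endoderm-like cells at 92.8 and 98.7 CPM. Both counting intervals of the log2 ratio included 0. Somite and paraxial mesoderm-like cells were at 289 and 207.5 CPM, with an interval of 0.36 to 0.59 for the log2 ratio, and caudal epiblast and NMP-like cells at 37.4 and 74.0 CPM, with an interval of -1.25 to -0.73. Over 24 classes Nnat was lower in the Tet-TKO library in 16, with the interval below 0 in 9 and above 0 in 2. No share over all genes stands beside these counts. The stages were not tested against each other.

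Blcap was low in all classes. In WT host cells it was highest in mesenchyme-like cells at 26.5 CPM (23.8 and 29.1), cluster 15 at 25.5 CPM and somite and paraxial mesoderm-like cells at 24.0 CPM (23.9 and 24.2), and lowest in endothelium-like cells at 11.8 CPM, erythroid-like cells at 10.9 CPM and ExE ectoderm-like cells at 4.91 CPM. The span was 5.39-fold, with overlap in 22 of 25 neighbouring pairs. Over the WT host classes it went with Nnat (r = 0.70, n = 26) and with Gnas (r = 0.70, n = 26), although the rank correlation with Gnas was 0.37. Over the Tet-TKO classes r was lower, at 0.45 with Nnat and 0.48 with Gnas (n = 21). The genes most like it were the zinc finger genes Repin1 (r = 0.822) and Zfp768 (0.806) and the transcription factor gene Gtf2i (0.802).

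Blcap was lower in Tet-TKO cells in all 23 classes tested. Its log2 fold changes ran from -0.97 to -0.22 with a median of -0.49. It was called in 0 of them in edgeR and in 0 by DESeq2, and 8 had an unadjusted p below 0.05 in edgeR. Against the other cells, the difference was called in 0 classes, with 2 at an unadjusted p below 0.05 in edgeR. In 20 classes every Tet-TKO library was below every WT host library. In mesenchyme-like cells it was at 16.8, 18.1, 15.3 and 15.4 CPM in Tet-TKO and 23.8 and 29.1 CPM in WT host libraries (log2 fold change -0.73, SE 0.17, adjusted p = 0.0756, edgeR with Benjamini-Hochberg adjustment). The largest estimate, in somite and paraxial mesoderm-like cells, came from 8.62, 7.69, 14.4 and 16.3 CPM against 23.9 and 24.2 CPM (log2 fold change -0.97, SE 0.29). Tet-TKO libraries 1 and 2 were lower than libraries 3 and 4 in that class. In the called Nnat classes Blcap had log2 fold changes of -0.61 (notochord-like), -0.41 (gut endoderm-like) and -0.86 (pharyngeal mesoderm-like). In 19 of 24 classes the Nnat UMIs per Blcap UMI were higher in every Tet-TKO library than in any WT host library. Where both genes stood apart, this too follows from their levels. At E7.5 Blcap was lower in the Tet-TKO library in 17 of 24 classes, with the counting interval below 0 in 7 and above 0 in 0. These counts again lack a share over all genes.

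Gnas was highest in allantois-like cells at 1242 CPM (1238 and 1246), cardiomyocyte-like cells at 1229 CPM (1216 and 1241) and pharyngeal mesoderm-like cells at 1201 CPM (1218 and 1183) of the WT host. It was lowest in erythroid-like cells at 585 CPM (584 and 586), visceral endoderm-like cells at 423 CPM (417 and 428) and ExE ectoderm-like cells at 130 CPM (121 and 139). The span was 9.55-fold, most of it below the erythroid-like class, and 14 of 25 neighbouring pairs overlapped, the fewest of the 5 genes. The genes most like Gnas were Mcrip1 (r = 0.918), Pafah1b2 (0.899) and Stk39 (0.875).

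Gnas was called in 0 of 24 classes in edgeR and in 0 by DESeq2, with 0 at an unadjusted p below 0.05 in edgeR. Its log2 fold changes ran from -0.23 in erythroid-like cells to 0.16 in cardiomyocyte-like cells, with a median of -0.03. In cardiomyocyte-like cells it was at 1325, 1358, 1401 and 1554 CPM in Tet-TKO and 1216 and 1241 CPM in WT host libraries. In allantois-like cells, the highest WT host class, it was at 1170, 1218, 1148 and 1114 CPM against 1238 and 1246 CPM. The libraries of the genotypes overlapped in 17 of the 24 classes. Against the other cells, the difference was called in 0 classes, had an unadjusted p below 0.05 in 15 and reached an adjusted p of 0.01 in 5 (edgeR), all with smaller log2 fold changes in the class, and in 0 when erythroid-like and extraembryonic-like cells were left out of the other cells. At E7.5 Gnas was lower in the Tet-TKO library in 16 of 24 classes, with a median log2 ratio of -0.04. This count too lacks a share over all genes.

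**Figure D5:**
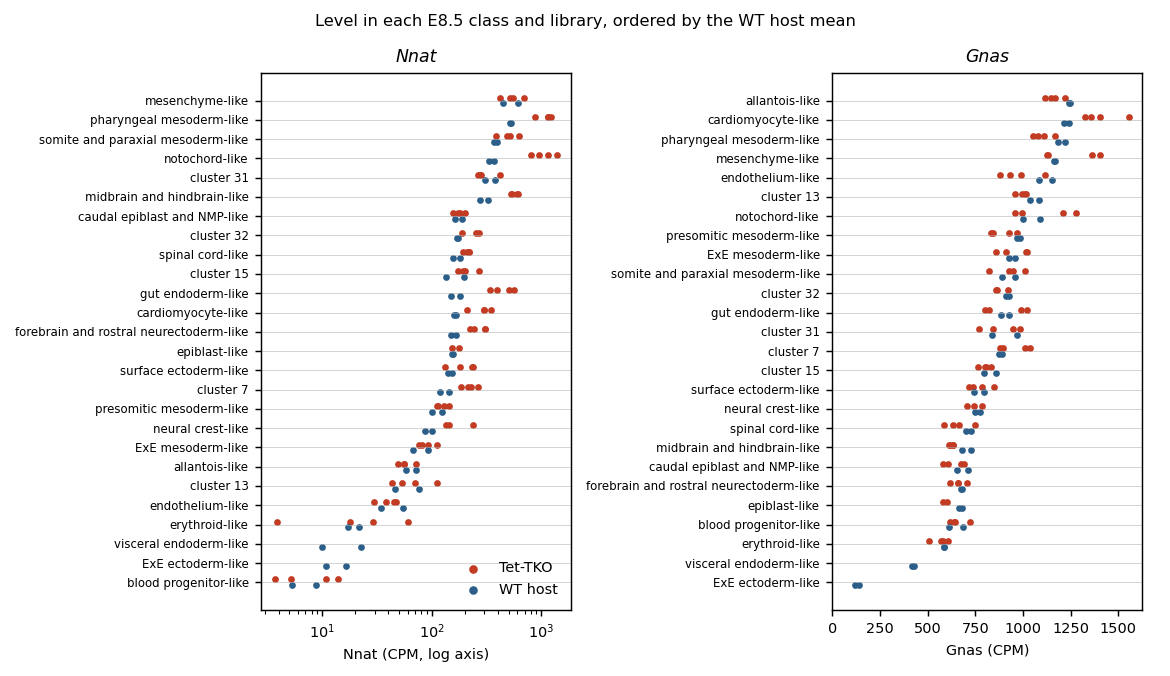
Level of Nnat (left, logarithmic axis) and Gnas (right, linear axis) in each E8.5 class, in CPM, with Tet-TKO in red and WT host in blue. Points are libraries with at least 10 cells of the class, and classes are ordered by the WT host mean. Nnat spans 74.5-fold over the WT host classes, and its Tet-TKO points stand clear to the right in notochord-like, gut endoderm-like and pharyngeal mesoderm-like cells, while the Gnas points of both genotypes lie side by side.

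Genes around the 5 loci were counted in the same fit over all genes, which had a median log2 fold change of 0.02. Over all genes tested at this level, 26.7% had an unadjusted p below 0.05 in edgeR and 6.86% were called by DESeq2, beside the 2.06% called lower and 0.588% called higher in edgeR, and the counts of the lists below are to be read against these shares. Of 5 tested neighbours of H13 and Mcts2, 0 were called in edgeR (2 at an unadjusted p below 0.05) and the median was 0.06, with the largest values in Cox4i2, a cytochrome oxidase subunit (-1.51, adjusted p = 0.0655), and Rem1 (-1.24, adjusted p = 0.0510, edgeR with Benjamini-Hochberg adjustment), which DESeq2 called both. Without erythroid-like and extraembryonic-like cells they were at -1.91 (adjusted p = 0.0469) and -1.62 (adjusted p = 0.0345, edgeR). Of 8 tested neighbours of Nnat and Blcap, 0 were called in edgeR and 0 by DESeq2 (2 at an unadjusted p below 0.05 in edgeR) and the median was -0.06, with Tgm2 at -0.68 (adjusted p = 0.0768) and Src at 0.48 (adjusted p = 0.128, edgeR). These became -0.19 (adjusted p = 0.588) and 0.32 (adjusted p = 0.366, edgeR) without erythroid-like and extraembryonic-like cells. Of 7 tested neighbours of Gnas, 1 was called lower and the median was -0.20. This was the lysosomal protease gene Ctsz, at 67.8, 64.6, 72.8 and 66.8 CPM in Tet-TKO and 209 and 119 CPM in WT host libraries (log2 fold change -1.35, adjusted p = 0.00935, edgeR), at -0.50 (adjusted p = 0.0237) without erythroid-like and extraembryonic-like cells, and at -0.92 (adjusted p = 0.0371) without WT host library 1. A list of other imprinted genes of the chromosome, Sfmbt2, Gatm and Gnasas1, had 0 calls of 3 in edgeR, 3 of 3 at an unadjusted p below 0.05, and a median of -0.46, and DESeq2 called Sfmbt2 and Gnasas1. Sfmbt2, a Polycomb-related gene of extraembryonic tissues, was at 1.88 to 2.36 CPM in the Tet-TKO libraries and at 10.1 and 4.20 CPM in the WT host (log2 fold change -1.80, adjusted p = 0.0174, edgeR), and its log2 fold change was -1.06 (adjusted p = 0.111) without WT host library 1 and 0.19 without erythroid-like and extraembryonic-like cells.

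Protein partners and relatives of the 5 genes were counted in the same way. Of Mcts1, Denr and Eif2d, the genes of translation re-initiation, 0 of 3 were called in edgeR and 0 by DESeq2, with log2 fold changes of -0.03, -0.01 and 0.03 and 0 at an unadjusted p below 0.05. Mcts1 changed sign between pairs of Tet-TKO libraries, as its levels above show. Of the signal peptide peptidase relatives of H13, 0 of 3 tested were called in edgeR and 0 by DESeq2, with 0 at an unadjusted p below 0.05 (Sppl3 at -0.21 and Sppl2b at -0.17, median -0.17). Of 25 genes of stimulatory G protein signalling, 0 were called in edgeR (8 at an unadjusted p below 0.05) and 4 by DESeq2 (Gnal, Adcy2, Adcy7 and Adcy9, named after their values were seen), with a median of -0.05 and the largest values in the adenylyl cyclase genes Adcy7 (-1.53, adjusted p = 0.0238) and Adcy2 (1.51, adjusted p = 0.0209, edgeR with Benjamini-Hochberg adjustment). Adcy7 stood at -0.59 (adjusted p = 0.32, edgeR) when erythroid-like and extraembryonic-like cells were left out. Of 12 neural progenitor genes, listed because of the place of Nnat in that tissue, 0 were called in edgeR and 0 by DESeq2 (6 at an unadjusted p below 0.05 in edgeR) and the median was 0.52, with Zic1 at 1.63 (adjusted p = 0.135) and Hes5 at 1.38 (adjusted p = 0.148, edgeR). Zic1 was at 0.96 without WT host library 1 and at 2.88 without WT host library 2. Otx2 (-0.72, adjusted p = 0.028) and Sox2 (-0.54, adjusted p = 0.117, edgeR) went the other way, and the other genes of this list lay above 0.

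Of 43 further imprinted genes, all of other chromosomes except Zfp64 (0.16, adjusted p = 0.514, edgeR), which lies on chromosome 2, 5 were called higher and 1 lower in edgeR, and 11 by DESeq2, with a median log2 fold change of 0.41. Of the 43, 23 had an unadjusted p below 0.05 in edgeR. The 4 of largest size were the paternally expressed Zdbf2 (1.91, adjusted p = 0.00389), Plagl1, a zinc finger gene (1.79, adjusted p = 0.00292), and Snrpn, a splicing factor gene (1.75, adjusted p = 0.00102), and the lower gene Asb4 (-1.89, adjusted p = 0.00307, edgeR with Benjamini-Hochberg adjustment). All 4 missed the threshold without WT host library 1 (adjusted p between 0.0107 and 0.0415, edgeR), with log2 fold changes of 1.78 for Zdbf2, 1.64 for Plagl1, 1.79 for Snrpn and -1.86 for Asb4 against the lone WT host library, and Zdbf2 (adjusted p = 0.0146) and Plagl1 (adjusted p = 0.0115, edgeR) also did without erythroid-like and extraembryonic-like cells. Snrpn was at 226, 205, 238 and 274 CPM in Tet-TKO and 68.6 and 62.9 CPM in WT host libraries. Of 13 genes that keep or set methylation imprints, 0 were called in edgeR (4 at an unadjusted p below 0.05) and the median was 0.16. The largest values were those of Dnmt3l, a cofactor of de novo methylation (-3.92, adjusted p = 0.0104), and Dppa3, which shields the maternal genome from demethylation (2.01, adjusted p = 0.0273, edgeR with Benjamini-Hochberg adjustment), both of them called by DESeq2. Without erythroid-like and extraembryonic-like cells Dnmt3l stood at -0.96 (adjusted p = 0.413, edgeR). Dppa3 is also a marker of the primordial germ cell-like class. That class held 76, 84, 24 and 7 of the 7045, 9552, 2304 and 1012 kept cells of Tet-TKO libraries 1 to 4. It held 21 and 6 of the 8260 and 9038 of the WT host libraries. The part of these cells in the Dppa3 value was not tested.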

How the data were processed

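Reads were aligned to mm10 in Cell Ranger (version 3.1.0 per the file headers, another version per the study's methods). The authors deposited a matrix of unnormalized UMI counts for each of 8 10x Genomics libraries, with tdTomato among the features. Every deposited barcode held at least 500 UMIs. Depth sets the precision of low genes such as Blcap, and counting intervals do not cover variation between embryos.

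Barcodes were kept from 1500 UMIs upwards where mitochondrial UMIs made up no more than 30% and ribosomal UMIs no more than 35%. The 2500 most variable genes, without imprinted genes, Xist, tdTomato and Y-linked genes, were reduced to 50 principal components and aligned between libraries (20 mutual nearest neighbours), and the graph of 15 neighbours was clustered by Leiden at resolution 2 (scanpy 1.11.5, leidenalg 0.10.2, Python 3.11.15). A cluster was called X-like when at least 3 markers of X were raised, their mean log2 fold was at least 1 and led the next class by 0.2, unless its 10 leading genes held more markers of another class or it had few UMIs for its library and no marker of X among them. Doublets were removed only as an alternative.

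UMIs were summed per library, or per class where a library had 10 or more cells in it, and tested with the quasi-likelihood test of edgeR 4.0.16 (filterByExpr, TMM, R 4.3.3). The study used this test and these thresholds too, but not on such sums. The Benjamini-Hochberg adjustment ran over all genes of a fit, and a gene was called below 0.01 where its log2 fold change was at least 1 in size. Standard errors were taken as the log2 fold change over the square root of F. Differences between a class and the other cells were tested as an interaction with the library as a block. E7.5, with 1 library of each genotype, was not tested, and its ratios have exact 95% intervals. CPM values are UMIs scaled to a sum of 1000000. The scripts were tested on simulated data.

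The members and gene lists were chosen with earlier results of these data known. Named for each gene were its 3 highest and 3 lowest WT host classes, up to 6 called classes, and the 3 genes with the most similar WT host levels among those of at least 10 CPM in a class, and from each list up to 4 called genes or, with none, the 2 of largest change. Of the lists, Nespas was counted under Gnasas1, and Kiaa1755 and Apcdd1l were not matched. Alternatives were DESeq2 1.42.0, its size factors, no filter on low counts, each library left out, a replicate block, summed pairs of libraries, 3000 UMIs or 30 cells as minimum, cells that match their tdTomato fraction, doublets removed, resolution 1, no correction between libraries, classes weighted equally, and no erythroid-like or extraembryonic-like cells. Promoter sequences are from RefSeq.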

Additional observations from a re-analysis of the deposited data

Results flagged for a closer look

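The genotype effect on Nnat differed between a class and the other cells of the same libraries by more than the thresholds in 3 of 24 E8.5 classes (edgeR interaction test with the library as a block, Benjamini-Hochberg adjustment over all genes). The log2 fold change in allantois-like cells minus that in the other cells was -1.175 (adjusted p = 4.55e-05). In cluster 31 it was -1.139 (adjusted p = 3.02e-06), and in endothelium-like cells it was -1.021 (adjusted p = 9.94e-08). With erythroid-like and extraembryonic-like cells left out of the other cells, an alternative added after seeing the data, the values were -0.73 (adjusted p = 0.0044), -0.70 (adjusted p = 0.155) and -0.62 (adjusted p = 0.0188), and 0 of these 3 classes were called. For cluster 31 and endothelium-like cells the variance was pooled over all genes, so their p-values do not measure the spread of Nnat itself. The sums of cluster 31 held few UMIs, and 3076 genes were tested in its own fit, the fewest of the tested classes. In 29 groups of 4 Tet-TKO libraries tested for a library far from the others by Dixon's test, 0 were found.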

How the results depend on the processing

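H13 stayed lower at whole-library level in all 19 settings (log2 fold change -1.45 to -1.28). These include the reported fit itself and the same fit read without the minimum fold change. H13 missed the threshold at -1.29 without WT host library 1, which leaves a lone WT host library. It also missed it at -1.34 (adjusted p = 0.0209, edgeR) with the Tet-TKO libraries summed in pairs (1 with 2, 3 with 4), where 0 of all genes were called. With each library left out in turn its values ran from -1.44 to -1.29. With classes weighted equally Nnat moved to 0.68, Blcap to -0.59 and Gnas to -0.022. The number of classes in which a gene was called ran, with each library left out, from 1 to 13 for H13 (17 as reported), from 0 to 3 for Mcts2 (1) and from 0 to 3 for Nnat (3), with the fewest for H13, Mcts2 and Nnat without WT host library 1 or 2. With summed pairs it was 5, 0 and 0. Without correction between libraries it was 7 for H13 and 2 for Mcts2, and with at least 30 cells it was 2 for Mcts2. Without the correction, which formed the classes anew, H13 in blood progenitor-like cells stood at 0.031 (adjusted p = 1.0, edgeR), and H13 was lower in 12 of 14 classes, with the other exception at 0.33. In every other alternative H13 was lower in every class tested.

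Replicate numbers are shared only by libraries 1 and 2 of both genotypes, and no label says that a number marks a shared pool. The differences between libraries 1 and 2 of the genotypes correlated at r = 0.44 over 21091 genes. With the replicate block the number of calling classes was 7 for Mcts2 and 5 for Nnat, and over all genes 1762 were called, against 7 and 4 classes and 464 genes for the same 4 libraries with no block. In these 4 libraries Mcts1 was at 0.38 and Sppl3 at 0.026, both with the replicate block (Mcts1 adjusted p = 0.00232, edgeR) and without it. Blcap was called in 1 class by these 4 libraries with no block and in 1 with Tet-TKO libraries 3 and 4 only. The fits on libraries 1 and 2 without the block, on Tet-TKO libraries 3 and 4, and the interaction without erythroid-like and extraembryonic-like cells were added after seeing the data. In that interaction the genotype effect on Nnat was called different in 1 class (3 as reported). With each library left out of the interaction with all other cells it was called in 2 to 5, the most without Tet-TKO library 2.

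With each library left out Mcts1 ran from -0.20 to 0.14, turning to 0.11 without Tet-TKO library 3, to 0.14 without Tet-TKO library 4 and to 0.019 without WT host library 1. Eif2d ran from -0.00358 (without WT host library 2) to 0.043, and was at -0.00203 with Tet-TKO libraries 3 and 4 only. Sfmbt2 turned to 0.19 without erythroid-like and extraembryonic-like cells. The highest class level of Gnas was 1233 CPM at resolution 1 against 1242 CPM. Calls over all genes at whole-library level were 558 as reported, 1446 with DESeq2, 949 with no filter on low counts, 2000 with Tet-TKO libraries 3 and 4 only, 182 without erythroid-like and extraembryonic-like cells and 109 to 230 with a library left out. The causes were not tested. Depth limits Blcap in rare classes, since a class sum can hold a few Blcap UMIs.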
